A study of Mus musculus with 19 samples.

Results

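The carbohydrate sulfotransferases described here are 10 mouse genes named CHST, taken by symbol from an expression table of 22958 genes: Chst1, Chst2, Chst3, Chst7, Chst8, Chst10, Chst11, Chst12, Chst14 and Chst15. All 10 were found and all 10 passed the filter on low counts. The family was chosen by its measured RNA change, because Chst7 was among the largest falls in glia relative to glial progenitor cells (GPC), so the levels and changes of its members between these groups are given as a description, with no test. RNA was sequenced from 3 libraries of glial cells derived from mouse embryonic stem cells and from 4 libraries of GPC derived from such stem cells. The protocols in the labels describe differentiation with 0.1 µM all-trans retinoic acid, cells sorted at day 8 for the surface antigen A2B5, and growth on fibronectin with EGF and FGF2 at 10 ng/ml. The labels carry this one text for both groups, so they do not tell how the glia were made or whether these still received the factors. Neither a genotype nor the stem cell line is named. Binding of SOX3, SOX9 and NFIA was mapped by ChIP-seq in GPC, with 1 peak list over 2 SOX3, 3 SOX9 and 2 NFIA samples, while H3K27Ac and input samples were not analysed here.

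CHST enzymes sit in the Golgi and move a sulfate group from the donor PAPS onto sugars of proteoglycans and glycoproteins. The position of the sulfate on chondroitin, the main glycosaminoglycan of brain matrix, helps decide which growth factors and receptors the chain binds. In nervous tissue such chains surround synapses and are laid down by astrocytes and their precursors after injury. Chst3 and Chst7 encode chondroitin 6-O-sulfotransferases, and the product of Chst7 also acts on N-acetylglucosamine. Chst11 and Chst12 encode chondroitin 4-O-sulfotransferases, Chst14 sulfates dermatan at the same position, and Chst15 adds a second sulfate to already sulfated N-acetylgalactosamine. Chst2 sulfates N-acetylglucosamine and Chst1 galactose of keratan-type chains. Chst10 makes the HNK-1 epitope of neural adhesion molecules, and Chst8 sulfates N-glycans such as those of pituitary hormones.

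Reads in genes came to 6897294 to 17369367 in glia and 12836998 to 22439837 in GPC. GPC replicate 3 stood apart from the other GPC libraries on the second principal component, which held 4.48% of the variance. It was also the GPC library nearest to glia on the first, which held 90.4%, and the deepest library. Replicates are numbered, but no label says that they are separate cultures, so the p-values for other genes below measure the spread between these libraries, which may be technical. In bulk RNA, fewer cells of a type and less RNA per cell cannot be told apart. A marker is said to rise or fall in glia where its adjusted p was below 0.05 in edgeR. Of all genes tested 70.4% did so, 35.2% in each direction. The summed level of 10 maturing oligodendrocyte markers was 1707 to 2430 RPKM (reads scaled to gene length and library size) in glia and 102 to 127 RPKM in GPC, and all 10 rose. The sum of 10 astrocyte markers was 7502 to 9644 RPKM in glia and 824 to 1251 RPKM in GPC, with 8 rising and 2 falling. For 9 mesenchyme markers the sum was 665 to 804 RPKM in glia and 154 to 167 RPKM in GPC, and all 9 rose. The sum of 9 neuronal markers was 226 to 243 RPKM in glia and 169 to 188 RPKM in GPC, with 5 rising and 2 falling. Map2, 1 of the 2 that fell, averaged 127 RPKM in glia and 150 RPKM in GPC. The 10 cell cycle genes all fell, with sums of 199.5 to 207 RPKM in glia and 756 to 954 RPKM in GPC. Of 7 oligodendrocyte precursor markers 4 rose and 3 fell, and their sum was 1061 to 1438 RPKM in glia and 1612 to 1775 RPKM in GPC. Of 7 neural progenitor markers 2 rose and 3 fell, and their sum was 3231 to 3298 RPKM in glia and 6929 to 7420 RPKM in GPC. Fabp7, 1 of those that fell, alone averaged 1659 RPKM in glia and 5529 RPKM in GPC. The 7 microglia, 7 endothelial and 6 pluripotent cell markers summed to at most 8.84, 4.58 and 2.63 RPKM in any library. Only 1, 3 and 1 genes of these lists passed the filter on low counts. Tmem119, at means of 8.07 RPKM in glia and 1.74 RPKM in GPC, and Kdr rose, while Emcn, Eng and Esrrb fell. Cx3cr1, Cldn5, Pou5f1, Zfp42 and Dppa5a had no read in any library. GPC replicate 3 had the highest sums of the GPC libraries for the astrocyte and the maturing oligodendrocyte markers, and the lowest for the cell cycle genes, at 756 RPKM. The part of cell makeup in the values below was not tested.

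Chst7 was nearly absent from glia and among the most abundant members in GPC. It stood at 0.503, 0.528 and 0.484 RPKM in glia replicates 1 to 3, against 33.0, 32.8, 30.9 and 33.6 RPKM in GPC replicates 1 to 4. These levels rest on 19, 8 and 19 reads in glia and on 932, 941, 1527 and 956 reads in GPC. The groups lay far apart, and within each the libraries differed little. With so few reads in glia, the closeness of the glia values says little of how well they repeat. The mean was 0.505 ± 0.0219 RPKM in glia (SD, n = 3) and 32.5 ± 1.15 RPKM in GPC (n = 4), which is 64.4-fold lower in glia. The log2 change of glia over GPC was -6.02 ± 0.11 (SE, taken from the F statistic of edgeR). With so few reads in glia this SE is likely too small. Chst7 had the fifth largest fall of 13588 genes tested, between Dusp6 (-6.05), an ERK phosphatase, and Nrgn (-5.80), which encodes neurogranin. Leaving out any 1 library gave changes between -6.05 and -6.01. In the RefSeq table Chst7 overlaps Slc9a7, a sodium-proton exchanger gene, and strand was not stated for the counting. Slc9a7 had 4.97, 5.10 and 4.16 RPKM in glia and 12.2, 13.5, 12.5 and 12.3 RPKM in GPC, with a log2 change of -1.45 ± 0.10, a smaller change than that of Chst7.

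The genes whose pattern over the 7 libraries lay closest to that of Chst7 were Fbln2, Hmga2, Dusp6, Nrgn and Spry4. Likeness was the root mean square difference of log2 CPM (counts scaled to library size), each gene centred on its own mean. It was 0.18 for Fbln2, a matrix protein gene, 0.18 for Hmga2, a chromatin protein gene of progenitors, and 0.18 for Dusp6. It was 0.38 for Nrgn and 0.43 for Spry4, an inhibitor of FGF signalling. All 5 fell, with log2 changes between -6.05 for Dusp6 and -5.02 for Spry4. This follows from how they were picked, since a gene this close to Chst7 has to fall by a similar amount.

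Chst3, the other chondroitin 6-O-sulfotransferase gene, moved the other way and by far less. Its level was 5.23, 4.48 and 5.37 RPKM in glia and 2.98, 2.97, 4.98 and 2.69 RPKM in GPC. The groups overlapped through GPC replicate 3 alone, which had 1.73 times the mean of the other GPC libraries. The mean was 5.03 ± 0.479 RPKM in glia (SD, n = 3) and 3.40 ± 1.06 RPKM in GPC (n = 4), and the log2 change was 0.52 ± 0.21 (SE), or 0.79 without GPC replicate 3. Chst3 made up 91.2%, 89.5% and 91.7% of the summed RPKM of Chst3 and Chst7 in glia. In GPC it made up 8.30%, 8.31%, 13.9% and 7.42%.

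**Figure D1:**
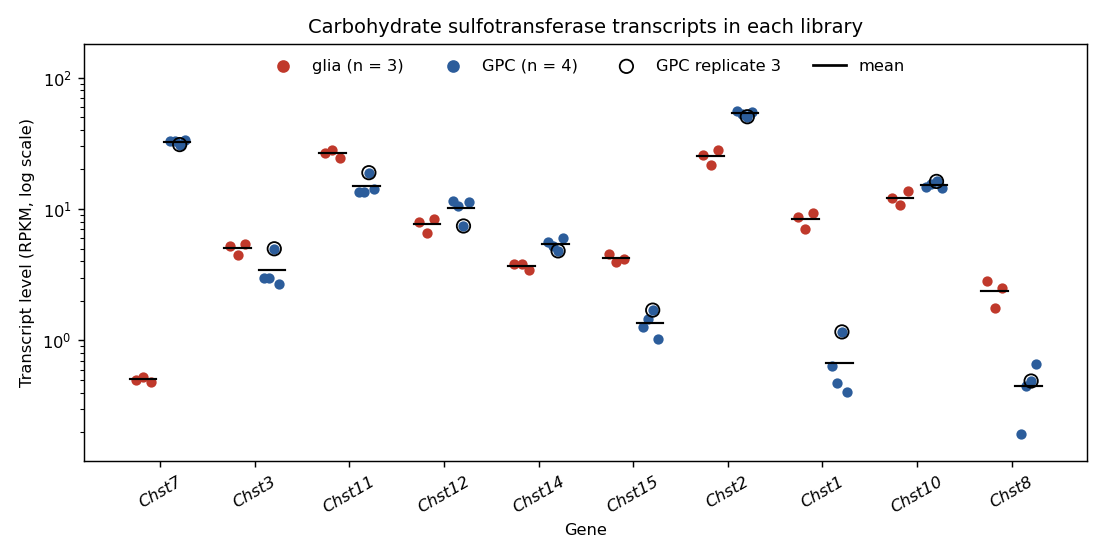
Transcript level (RPKM, log scale) of each sulfotransferase gene in every library, 3 glia libraries left of 4 GPC libraries, with bars at the group means and GPC replicate 3 ringed. Chst7 lies near 0.505 RPKM in glia and 32.5 RPKM in GPC, and only Chst3 and Chst12 have groups that overlap.

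Among the chondroitin 4-O-sulfotransferase genes, Chst11 was higher in glia and Chst12 lower. Chst11 had 26.7, 28.2 and 24.6 RPKM in glia and 13.5, 13.4, 18.9 and 14.3 RPKM in GPC. The groups did not overlap, and GPC replicate 3 was the GPC library nearest to glia. The mean was 26.5 ± 1.79 RPKM in glia (SD, n = 3) and 15.0 ± 2.60 RPKM in GPC (n = 4), with a log2 change of 0.78 ± 0.12 (SE). Chst12 had 7.97, 6.57 and 8.43 RPKM in glia and 11.6, 10.5, 7.42 and 11.3 RPKM in GPC. Here too GPC replicate 3 fell within the glia range, at 0.667 times the mean of the other GPC libraries. The log2 change of Chst12 was -0.41 ± 0.16, or -0.53 without that library. The ratio of Chst11 to Chst12 in RPKM was 3.35, 4.29 and 2.92 in glia and 1.17, 1.27, 2.54 and 1.26 in GPC.

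The 4-O genes outweighed the 6-O genes in glia, and the reverse held in GPC through Chst7, whose fall served to choose the family. Chst3 alone was below the 4-O sum in every library, at means of 5.03 RPKM in glia and 3.40 RPKM in GPC. Chst11 and Chst12 together came to 34.7, 34.7 and 33.0 RPKM in glia and to 25.1, 23.9, 26.3 and 25.6 RPKM in GPC. Chst3 and Chst7 together came to 5.73, 5.01 and 5.85 RPKM in glia and to 35.9, 35.7, 35.9 and 36.2 RPKM in GPC. The ratio of the 4-O sum to the 6-O sum was 6.05, 6.94 and 5.64 in glia, against 0.698, 0.670, 0.733 and 0.705 in GPC. In GPC replicate 3 Chst3 was highest and Chst7 lowest of the GPC libraries, and the 6-O sum varied over GPC by 0.217 RPKM (SD, n = 4). These are ratios of transcript levels, and sulfated chains were not measured.

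Chst14, which acts on dermatan, was lower in glia, and Chst15, which makes oversulfated chondroitin, was higher. Chst14 stood at 3.80, 3.78 and 3.45 RPKM in glia and 5.58, 5.27, 4.80 and 6.002 RPKM in GPC. All glia libraries lay below all GPC libraries, with a log2 change of -0.58 ± 0.12 (SE). Chst15 had 4.58, 3.96 and 4.15 RPKM in glia and 1.25, 1.45, 1.70 and 1.02 RPKM in GPC. Every glia library was above every GPC library, the mean was 3.12-fold higher in glia, and the log2 change was 1.59 ± 0.16.

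The keratan-type enzymes changed in opposite directions, from very different starting levels. Chst2 had 25.9, 21.6 and 28.2 RPKM in glia, against 56.1, 52.6, 50.3 and 54.8 RPKM in GPC, where it was the most abundant member. Its mean was 25.2 ± 3.33 RPKM in glia (SD, n = 3) and 53.5 ± 2.55 RPKM in GPC (n = 4), a log2 change of -1.11 ± 0.09 (SE) with no overlap. Chst1 was well detected in glia and scarce in GPC, at 8.69, 7.03 and 9.28 RPKM in glia and 0.642, 0.474, 1.16 and 0.406 RPKM in GPC. The mean was 12.4-fold higher in glia and the log2 change was 3.50 ± 0.28, with 398, 129 and 430 reads in glia and 22, 17, 70 and 14 reads in GPC. GPC replicate 3 had 2.29 times the mean Chst1 level of the other GPC libraries, and without it the log2 change was 4.02.

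Chst10 changed least among the members, and Chst8 stayed low. Chst10, the HNK-1 enzyme gene, had 12.1, 10.7 and 13.8 RPKM in glia and 14.7, 15.4, 16.2 and 14.3 RPKM in GPC. The glia values were all below the GPC values, though narrowly, and the log2 change was -0.33 ± 0.10 (SE). Chst8 had 2.81, 1.75 and 2.52 RPKM in glia and 0.194, 0.446, 0.491 and 0.659 RPKM in GPC. These rest on 116, 29 and 105 reads in glia and 6, 14, 27 and 21 reads in GPC, the groups did not overlap, and the log2 change was 2.36 ± 0.30.

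**Figure D2:**
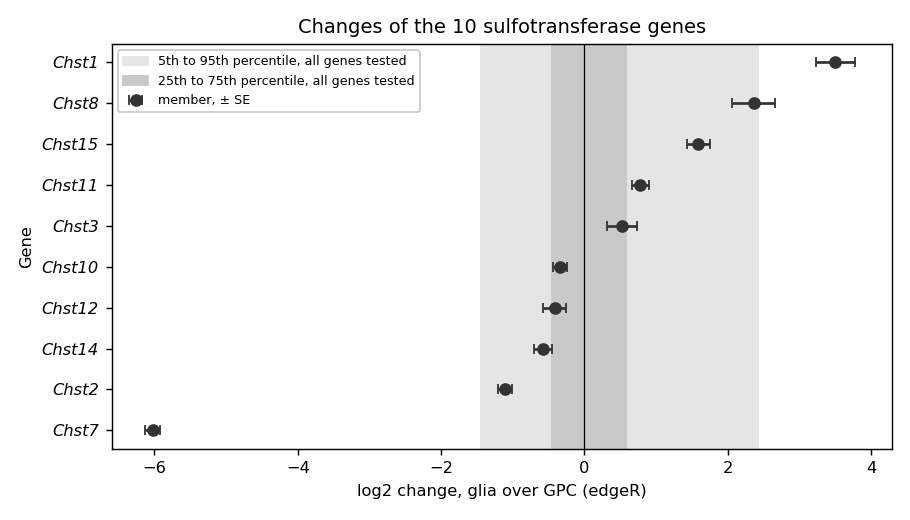
Log2 change of glia over GPC with its SE for the 10 members, against bands for the 5th to 95th and the 25th to 75th percentile of the 13588 genes tested. Chst7 at -6.02 and Chst1 at 3.50 lie outside the wider band, which runs from -1.45 to 2.43. The SE bar of Chst7 is likely too small, since its glia levels rest on few reads.

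In the fit across all genes 5 members passed as higher and 5 as lower in glia, where 70.4% of all genes tested passed in either direction, 35.2% as higher and 35.2% as lower (two-sided quasi-likelihood test in edgeR, with p adjusted by Benjamini-Hochberg and a threshold of 0.05). The values of the groups did not overlap for 8 members, against 69.5% of all genes tested. Because the contrast served to choose the family, nothing is read from these counts. Chst3 and Chst12 lay past the threshold only narrowly, and no longer did under 7 and 9 of 12 other settings of the fit. The median log2 change was 0.09 over the 10 members and 0.0013 over all genes tested.

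The order of levels in the family differed between the groups. In glia Chst11 and Chst2 led and their ranges overlapped, followed by Chst10, then Chst1 and Chst12 with overlapping ranges, then Chst3 and Chst15, again overlapping, then Chst14, Chst8 and Chst7. In GPC Chst2 led, followed by Chst7, then Chst10 and Chst11, whose ranges overlapped, then Chst12, then Chst14 and Chst3, again overlapping. Chst15, Chst1 and Chst8 were lowest in GPC, and each overlapped the next. The 10 genes summed to 98.2, 88.6 and 100.3 RPKM in glia and to 139, 135, 137 and 139 RPKM in GPC. Chst7 gave 0.530% ± 0.0587 of that sum in glia (SD, n = 3) and 23.6% ± 0.753 in GPC (n = 4). The share of Chst11 was 27.8% ± 3.67 in glia and 10.9% ± 1.94 in GPC, and that of Chst1 was 8.68% ± 0.676 in glia and 0.488% ± 0.250 in GPC. Chst12 and Chst14 kept similar shares, at 7.98% ± 0.508 and 3.86% ± 0.413 in glia and 7.40% ± 1.34 and 3.93% ± 0.334 in GPC. The mean levels of both were lower in glia, as was the sum, which chiefly Chst7 and Chst2 lower there. Every share, also those of Chst11 and Chst1, moves with that sum and is not a change in level. The table holds 14 CHST symbols, and none of the 4 that are not members passed 21 reads in any library. Of these Chst4 had no read at all, and Chst13 had 1 read in glia replicate 1 and 1 in GPC replicate 3.

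**Figure D3:**
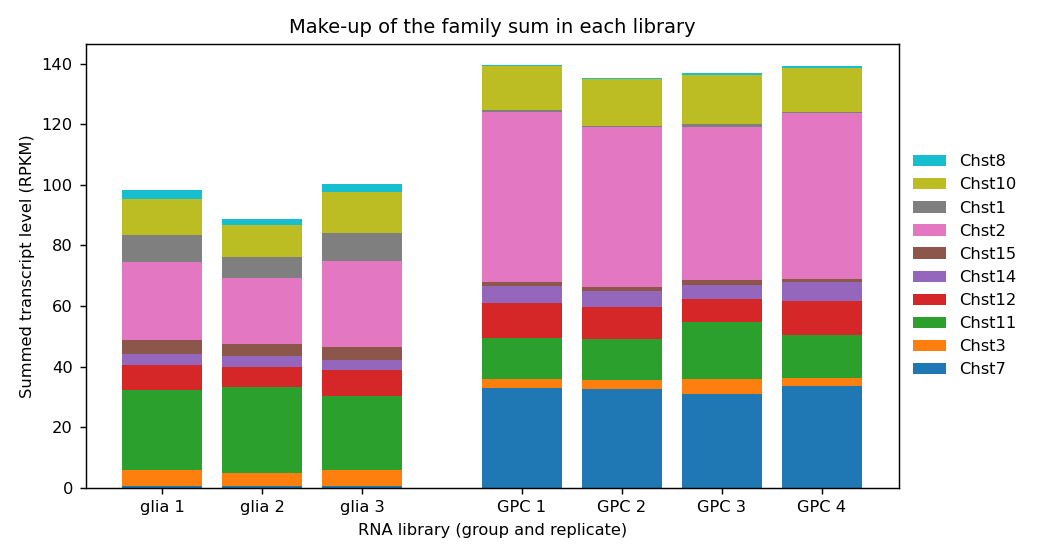
RPKM of the 10 members stacked in each library, 3 glia libraries left of 4 GPC libraries. The sum is 88.6 to 100.3 RPKM in glia and 135 to 139 RPKM in GPC, and the Chst7 block at the base is nearly gone in glia.

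A list of 16 tested genes covered the chondroitin and dermatan chain, its linkage to the core protein and changes made to the chain. Of these 8 fell and 3 rose, where 35.2% of all genes tested fell and 35.2% rose. Together this was 68.8% where 70.4% of all genes tested passed (edgeR's quasi-likelihood test, adjusted over all genes). The median log2 change was -0.13, and both linkage and chain genes were among the falls, such as Xylt1 and Chsy1. Xylt1, the xylosyltransferase that starts the chain, fell to 5.96 ± 0.200 RPKM in glia (SD, n = 3), against 20.8 ± 2.03 RPKM in GPC (n = 4), a log2 change of -1.83 ± 0.10 (SE). Pxylp1, a xylose phosphatase listed under its older symbol Acpl2, changed by -0.87 ± 0.12, and the chondroitin synthase gene Chsy1 by -0.85 ± 0.08. The linkage enzyme gene B3gat3 rose by 0.44 ± 0.09 on the log2 scale, and the chain-starting Csgalnact1 and Csgalnact2 by 0.37 ± 0.10 and 0.26 ± 0.10. The weakest of these 6 calls was that of Csgalnact2, at an adjusted p of 0.0404 (edgeR with Benjamini-Hochberg adjustment), whose call was lost under 7 of 12 other settings. Dse, Dsel and Ust, which modify uronic acids of these chains, had log2 changes of 0.17, 0.23 and 0.03 and did not pass.

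In the heparan sulfate pathway 6 of 19 tested genes rose and 6 fell, together 63.2% against 70.4% of all genes tested, and the median log2 change was -0.02. Hs3st2, a 3-O-sulfotransferase gene, had a larger fitted fall than Chst7, but so few reads in glia that the size of its fall is uncertain. It had 0.154, 0 and 0.127 RPKM in glia, from 6, 0 and 5 reads, against 12.3, 12.6, 11.8 and 13.3 RPKM in GPC, from 359, 376, 601 and 391 reads. No glia library came near GPC, and the log2 change was -6.73 ± 0.24 (SE; adjusted p = 8.91e-09, edgeR with Benjamini-Hochberg adjustment). The polymerase gene Ext1 changed by -0.91 ± 0.06 and the epimerase gene Glce by -0.80 ± 0.11. Sulf1, a sulfatase that removes 6-O-sulfate at the cell surface, rose to 14.4 ± 3.07 RPKM in glia (SD, n = 3), against 2.84 ± 0.999 RPKM in GPC (n = 4), a log2 change of 2.26 ± 0.24. Ndst3 and Extl1 rose by 3.84 ± 0.54 and 1.02 ± 0.28 on the log2 scale, and both were below 1 RPKM in each group mean. Ndst3 had 30, 12 and 31 reads in glia and 0, 1, 6 and 0 reads in GPC, so the size of its change is uncertain.

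Of 9 tested genes for the supply of sulfate and its donor 4 rose and 4 fell, together 88.9%, where 35.2% of all genes tested rose and 35.2% fell, with a median log2 change of -0.17. Of the enzymes that make PAPS, Papss2 rose to 6.12, 5.12 and 6.21 RPKM in glia, against 0.941, 0.979, 1.34 and 1.15 RPKM in GPC, a log2 change of 2.35 ± 0.15 (SE; adjusted p = 3.12e-07, edgeR with Benjamini-Hochberg adjustment). Papss1 stayed the more abundant of the pair, at 83.3 ± 6.19 RPKM in glia (SD, n = 3) and 107 ± 8.90 RPKM in GPC (n = 4), a log2 change of -0.39 ± 0.09. The anion exchanger genes Slc26a1 and Slc26a11 rose by 1.35 ± 0.19 and 0.67 ± 0.10, while the sulfate transporter gene Slc26a2 changed by -0.36 ± 0.10. Impad1, a Golgi phosphatase of the used donor, changed by -0.34 ± 0.10. Slc35b2, which carries PAPS into the Golgi, had 53.1 RPKM in glia and 58.6 RPKM in GPC on average and did not pass.

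Of 12 tested genes for other Golgi sulfotransferases and for keratan or HNK-1 backbones, 8 rose and 2 fell, together 83.3% against 70.4% of all genes tested, with a median log2 change of 0.44. Gal3st1, which makes the myelin lipid sulfatide, rose to 18.1, 12.3 and 21.2 RPKM in glia, against 2.61, 2.13, 3.76 and 3.01 RPKM in GPC. Its log2 change was 2.59 ± 0.20 (SE; adjusted p = 1.97e-06, edgeR with Benjamini-Hochberg adjustment). B3gat1, the glucuronyltransferase that builds the HNK-1 acceptor for the product of Chst10, rose by 1.38 ± 0.23, to 57.9 ± 3.77 RPKM in glia (SD, n = 3), against 21.6 ± 7.43 RPKM in GPC (n = 4). Chst10 itself, given above, was slightly lower in glia. B3gnt7, which extends keratan-type chains, rose by 2.09 ± 0.43 at under 1 RPKM in every library. Chst5 fell by 0.95 ± 0.31 on the log2 scale, with 10, 3 and 10 reads in glia and 16, 17, 21 and 10 reads in GPC, and the tyrosine sulfotransferase gene Tpst1 changed by -0.51 ± 0.07. The call of Chst5 ended with DESeq2 (adjusted p = 0.0882), without glia replicate 1 (adjusted p = 0.0541, edgeR) and without glia replicate 3 (adjusted p = 0.0549, edgeR).

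A list of 17 tested genes was drawn up for the lysosomal breakdown of sulfated glycans, though not all of them, such as Sumf2, encode lysosomal enzymes. Of these 9 rose and 3 fell, together 70.6% against 70.4% of all genes tested, with a median log2 change of 0.44. Arsg, Idua and Hexa rose by 1.78 ± 0.16, 1.15 ± 0.11 and 1.04 ± 0.07 on the log2 scale (SE), and Glb1, Hyal2 and Sumf2 changed by -0.95 ± 0.12, -0.76 ± 0.09 and -0.47 ± 0.11. Of 25 tested genes listed as proteoglycan core proteins 14 rose and 7 fell, together 84% against 70.4% of all genes tested. Their median log2 change was 0.60. Fmod, Dcn and Prelp, of the small leucine-rich proteoglycan family, rose by 7.65 ± 0.20, 2.96 ± 0.14 and 2.69 ± 0.08. Dcn is also on the mesenchyme list and Cspg4 on the oligodendrocyte precursor list given above. Fmod had 519, 241 and 524 reads in glia and 1, 2, 5 and 1 reads in GPC, so its size is uncertain. Acan, Cspg4 and Sdc3 changed by -1.63 ± 0.38, -1.45 ± 0.23 and -1.22 ± 0.10, and Acan was below 1 RPKM in both group means. The weakest of these 12 calls was that of Acan, at an adjusted p of 0.00322 (edgeR with Benjamini-Hochberg adjustment).

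**Figure D4:**
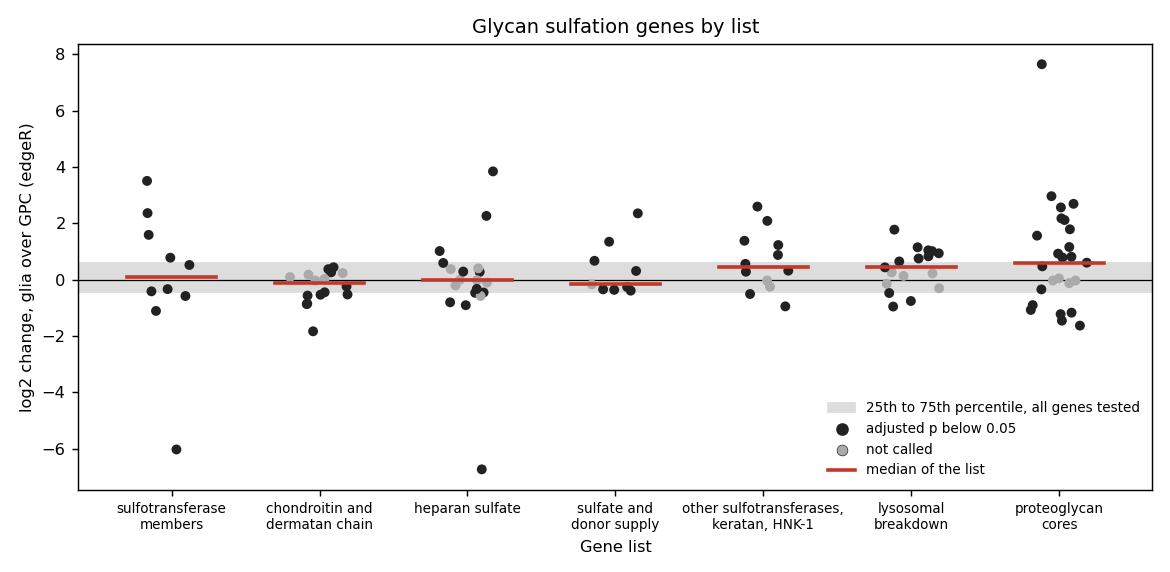
Log2 change of glia over GPC for the 10 sulfotransferase members and each tested gene of 6 lists of glycan genes, dark where the adjusted p was below 0.05, with the list median in red and the 25th to 75th percentile of all genes tested in grey. Hs3st2 at -6.73 and Chst7 at -6.02 are the lowest points, and Fmod at 7.65 the highest.

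In GPC the SOX9 and SOX3 lists named 3 members between them. A SOX9 peak was assigned by the authors to 2 of 10 members, Chst3 and Chst10, where 9.09% of the 22958 genes in the table had one. A SOX3 peak was assigned to 2 of 10 members, Chst2 and Chst10, where 4.38% of genes had one. Chst7 had neither. With so few members these counts are a description.

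Chst10 was the member with peaks of both factors, at separate places. Its SOX3 peak (mm9, chr1:38950383-38950514) lay 4557 bp downstream of the start site. The SOX9 peak (mm9, chr1:38973121-38973721) lay upstream, at -18416 bp, and the 2 peaks did not overlap. The SOX9 peak of Chst3 (mm9, chr10:59647169-59647769) lay 34540 bp downstream of the start and the SOX3 peak of Chst2 (mm9, chr9:94989721-94989891) 317883 bp downstream, so that it drops out if peaks are kept only within 100 kb. An annotation of build mm9 was not used here, so whether these peaks lie in introns is not given.

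Neither SOX9 peak of the family overlapped an NFIA peak, where 28.4% of all SOX9 peaks did. Start sites in mm9 could be worked out for Chst2, Chst3 and Chst10 from the peaks and their deposited distances, and NFIA peaks were sought within 100 kb of them. Chst2 had an NFIA peak (mm9, chr9:95326262-95326562) at -18724 bp, with a score of 500 in the authors' list, and only 17 of 14164 NFIA peaks scored as high. Chst10 had one at -95818 bp with a score of 17, near the median of 16 for the list, and Chst3 had none. An NFIA peak lay within 100 kb for 69.5% of the 1792 genes whose start could be worked out in this way.

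**Figure D5:**
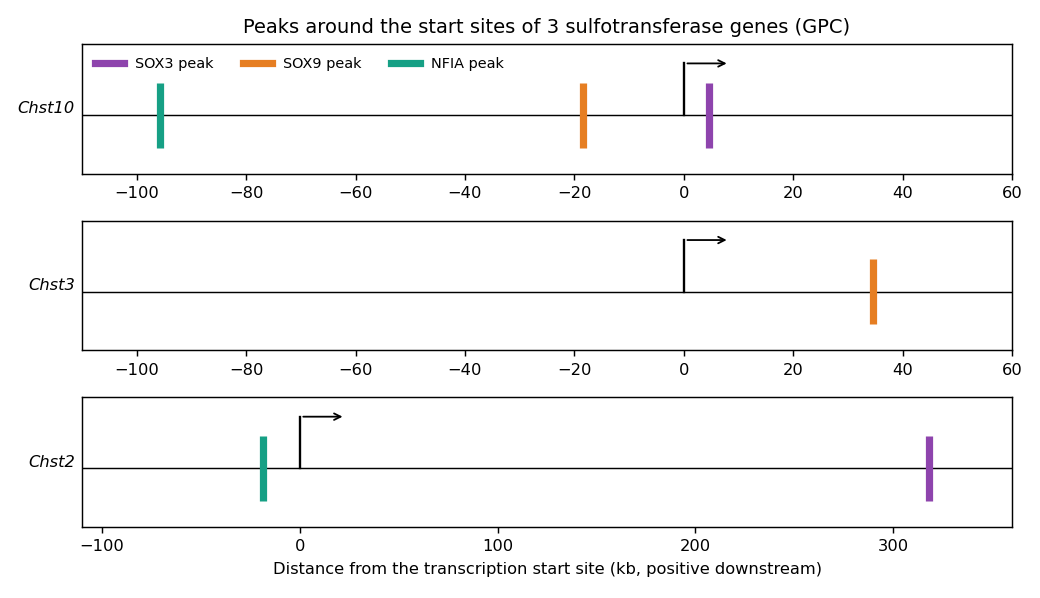
Peaks of SOX3, SOX9 and NFIA in GPC at their distance in kb from the start site of Chst10, Chst3 and Chst2, with the start site and direction of transcription as an arrow at 0. NFIA peaks are drawn within 100 kb only. The peaks of each gene lie apart, and the SOX3 peak of Chst2 is 317883 bp from its start.

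The promoters of Chst10 and Chst3 are shown because these were the members with a SOX9 peak, and that of Chst7 because it had the largest change and no SOX peak. Each is the 250 bases before the gene's start in RefSeq (GRCm38.p6), on the strand of the gene. Capitals mark the SOX-type motifs ACAATG and ACAAAG on either strand, so that CATTGT is ACAATG read on the other strand. The places are chr1:38898161-38898410 (minus strand) for Chst10, chr10:60219261-60219510 (minus strand) for Chst3 and chrX:20059320-20059569 (plus strand) for Chst7.
Chst10: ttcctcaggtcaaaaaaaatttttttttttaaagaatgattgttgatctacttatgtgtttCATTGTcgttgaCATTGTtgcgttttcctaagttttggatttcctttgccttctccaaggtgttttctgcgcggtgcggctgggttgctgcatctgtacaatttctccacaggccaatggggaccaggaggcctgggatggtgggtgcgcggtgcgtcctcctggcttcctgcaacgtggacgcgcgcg
Chst3: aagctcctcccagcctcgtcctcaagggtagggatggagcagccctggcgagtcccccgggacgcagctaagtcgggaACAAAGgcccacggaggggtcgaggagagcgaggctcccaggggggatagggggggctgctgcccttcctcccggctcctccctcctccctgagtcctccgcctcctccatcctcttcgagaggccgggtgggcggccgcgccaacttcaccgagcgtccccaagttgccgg
Chst7: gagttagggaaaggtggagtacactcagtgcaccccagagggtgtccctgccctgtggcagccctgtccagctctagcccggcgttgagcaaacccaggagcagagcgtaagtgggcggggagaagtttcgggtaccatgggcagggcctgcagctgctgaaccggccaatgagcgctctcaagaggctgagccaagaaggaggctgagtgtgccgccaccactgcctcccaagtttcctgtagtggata
Chst10 held ACAATG at 2 places on the other strand, from -189 and from -177 counted from the start, and Chst3 held ACAAAG from -172. None of the other 8 members held either motif in this window, where 25.5% of 27025 RefSeq promoters did. The full NFI motif, TTGGC and GCCAA with 5 bases between them, was in no member and in 0.0407% of promoters, and its shorter form TTGGCA was in 1 of 2 windows of Chst15 alone and in 12.5% of promoters. Sequence under the ChIP peaks was not used here, and a match is no evidence of binding. The Chst7 window held 61.2% G and C, Chst3 69.6% and Chst10 48.8%, against a median of 52% over these promoters.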

How the data were processed

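The members and gene lists were chosen with earlier results of these data known. RNA-seq gave read counts per gene, deposited by the authors without normalization, and RPKM values scaled by gene model length and reads, per the file headers. RPKM served for levels and the counts for all tests. The build was mm9 and MACS and MACS2 are named, per the submitters' processing notes. No source used here names an aligner, a counter or its use of strand. Peak lists were deposited by the authors with 1 list per factor, so replicates cannot be compared. The SOX lists pair peaks with genes and signed distances, and the NFIA list holds a score per peak, as deposited, of unstated meaning.

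Glia were tested against GPC in R 4.3.3 with edgeR 4.0.16 (TMM, filterByExpr, robust quasi-likelihood fits), adjusted by Benjamini-Hochberg over 13588 genes and called at 0.05. The SE of a log2 change is its size over the square root of F. For large changes that rest on few reads in a group, such as those of Chst7, Hs3st2 and Fmod, it is likely too small. Called genes are said to rise or fall. Counts of 2 replicates never came as close as sampling noise alone would bring them (chi-square per gene over 13652 to 14553 genes a pair, 4.16 to 9.57 between glia libraries and 2.00 to 28.4 between GPC libraries). Alternatives were DESeq2 1.42.0, upper quartile scaling, other filters, each library left out and a replicate block. On simulated counts edgeR recovered 99% of 100 genes changed by 1 on the log2 scale, among 13483 genes tested. There few genes were changed, all of them well counted, and every gene and library had the same spread. This therefore says little of genes with few reads or of GPC replicate 3. Named genes were all members and, per list, the 3 largest rises and 3 largest falls that passed, plus Chst4, Chst5, Chst13 and Gal3st1, and the 5 genes most like Chst7. Slc9a7, Slc35b2, Dse, Dsel, Ust, the single cell type markers and the genes with no reads were named after their values were seen. Of the peaks, 118 of 1367 for SOX3 and 196 of 2943 for SOX9 matched no gene of the table by symbol or by a RefSeq synonym (GRCm38.p6, names only).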

Additional observations from a re-analysis of the deposited data

Results flagged for a closer look

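In the 4 GPC libraries, replicate 3 stood far from the others for 2 of the 10 members. Chst3 was at 4.98 RPKM in GPC replicate 3, with a gap to the nearest library of 0.872 of the whole range, above Dixon's critical value for 4 samples. Chst11 was at 18.9 RPKM in the same library, with a gap of 0.842 of the range. Chance flags about 1 in 20 such groups. Both values lie toward those of glia, and the log2 change without that library was 0.79 for Chst3 and 0.92 for Chst11.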

How the results depend on the processing

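Over 12 other settings the log2 change of Chst7 ran between -6.05 and -5.98. None of the 10 members changed direction, and Chst8 was not tested where at least 50 counts in 3 libraries were required. The median log2 change of the members was -0.30 with at least 50 counts in 3 libraries, where a rising member was lost, and ran from 0.018 to 0.25 when libraries were left out, the highest without GPC replicate 3. The number of other Golgi sulfotransferase and backbone genes called lower was 1 with DESeq2, 1 with at least 50 counts in 3 libraries, and 1 to 3 when libraries were left out. Only 1 member had a SOX3 peak within 100 kb. The replicate numbers are no evidence of pairing: deviations of same-numbered libraries correlated by -0.03, 0.15 and 0.06. With the replicate block 65.4% of genes passed, against 65.5% of the same 6 libraries without it. The fit of these libraries without the block, which is the same as leaving out GPC replicate 4, and a ratio of mean RPKM under the scaling of the authors, were chosen after seeing the data. With 8 to 19 reads of Chst7 in a glia library, depth limits how well its remaining level is known.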
